A study of Homo sapiens with 18 samples.

Results

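The comparison described here is the addition of siRNA against DNMT1 to cells depleted of CHD4. It rests on 6 of the 18 RNA sequencing libraries of the series, chosen by their labels: 3 of cells given siRNA against CHD4 (siCHD4) and 3 of cells given siCHD4 and siRNA against DNMT1 (siDNMT1). All cells were SW48, an established human colon adenocarcinoma line, grown in L-15 medium with 10% serum, and both groups received siCHD4. Cells of the siCHD4 group were transfected on days 1, 3 and 6 and harvested for RNA on day 8. Cells of the siCHD4 plus siDNMT1 group got siDNMT1 on days 1, 3 and 5, then siCHD4 on days 7 and 8, and were harvested on day 11. The addition of siDNMT1 therefore came with another schedule, with fewer and later doses of siCHD4, and the effects of siDNMT1 and of the schedule cannot be told apart. The same change of schedule separates control siRNA plus siDNMT1 from control siRNA alone (3 libraries each). That pair shares no library with the siCHD4 pair, and the difference between the 2 siDNMT1 effects was tested with it. Control siRNA does not match the fewer and later doses of siCHD4, so the tested difference cannot be told apart from that change. Whether the 3 replicates of each treatment are independent cultures is not stated in the labels. The p-values then reflect library-to-library spread alone, possibly technical. Gene levels are FPKM, fragment numbers scaled to transcript length and library size. In RNA from whole cultures, a change in the number of expressing cells and a change per cell cannot be told apart. Changes are differences of log2(FPKM + 1), and a gene is called higher or lower at a limma adjusted p below 0.05.

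CHD4 uses ATP to move nucleosomes and works within NuRD, a repressor complex that also removes acetyl groups from histones. DNMT1 copies DNA methylation onto the new strand after replication, so that cells lacking it lose methylation as they divide. Cancer-testis genes, most of them on the X chromosome, are active in male germ cells, are silent and methylated in most somatic cells, and are known to respond to loss of DNA methylation in tumour lines.

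The sequences before the start sites of 4 genes are shown as examples of the patterns described below. The first pair rose with siDNMT1 whether or not CHD4 was depleted, and the second pair was high in cells given both siRNAs. No change in level was tested against these sequences. Each is the 250 bases before the start in RefSeq (GRCh38.p14), 5′ to 3′ on the gene's strand, with CG pairs, the target of DNA methylation, in capitals. Matched letter for letter to GRCh37, the build of the deposited values, they lie at chr15:39873030-39873279 (THBS1, plus strand, 24 CG pairs), chr6:26018016-26018265 (HIST1H1A, minus strand, 15 CG pairs), chrX:141293077-141293326 (MAGEC2, minus strand, 6 CG pairs) and chr3:121379751-121380000 (HCLS1, minus strand, 2 CG pairs).
THBS1: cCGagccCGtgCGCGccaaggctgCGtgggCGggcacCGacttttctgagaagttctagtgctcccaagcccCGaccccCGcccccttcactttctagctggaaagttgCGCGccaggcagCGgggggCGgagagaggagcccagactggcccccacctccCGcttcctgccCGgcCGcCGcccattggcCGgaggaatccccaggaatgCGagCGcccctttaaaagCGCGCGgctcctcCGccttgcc
HIST1H1A: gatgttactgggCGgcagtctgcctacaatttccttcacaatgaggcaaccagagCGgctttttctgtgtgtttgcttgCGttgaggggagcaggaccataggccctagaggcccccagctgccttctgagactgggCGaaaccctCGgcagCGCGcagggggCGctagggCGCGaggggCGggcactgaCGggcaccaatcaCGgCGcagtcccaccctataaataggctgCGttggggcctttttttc
MAGEC2: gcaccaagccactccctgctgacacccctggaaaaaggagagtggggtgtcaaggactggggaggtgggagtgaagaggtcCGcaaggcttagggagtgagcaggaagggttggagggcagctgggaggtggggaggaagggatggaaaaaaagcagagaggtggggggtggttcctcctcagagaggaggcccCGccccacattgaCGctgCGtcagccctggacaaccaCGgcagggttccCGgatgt
HCLS1: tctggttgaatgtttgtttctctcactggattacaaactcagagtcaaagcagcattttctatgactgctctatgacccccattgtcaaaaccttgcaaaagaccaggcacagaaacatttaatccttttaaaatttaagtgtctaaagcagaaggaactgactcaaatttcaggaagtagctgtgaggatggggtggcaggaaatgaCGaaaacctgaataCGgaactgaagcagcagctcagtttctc

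The CG pairs were counted by the letters CG, which read the same on both strands. Where a gene had several such sequences, the one with the most CG pairs was used. Over the 27195 genes with such a RefSeq sequence the median was 12 CG pairs, 94.2% held at least 1, and 36.1% held at least 20. Those include genes that were not tested. The 10049 tested genes with a sequence had a median of 23 CG pairs, and 63.6% held 20 or more. The 28 tested X-linked cancer-testis genes with a sequence had a median of 10 CG pairs, and 0% of them held 20 or more. A comparison of all called genes by CG content was void, since 78.5% of the tested genes had a sequence, under the 80% set for such a check. Neither methylation nor CHD4 binding was measured in the files used here.

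The 6 libraries grouped by treatment. Pearson's r across genes was 0.947 to 0.974 within siCHD4, 0.964 to 0.968 within siCHD4 plus siDNMT1 and 0.912 to 0.928 between them. The siCHD4 replicate 2 library stood apart from the other 2 of its group, and each main count is also given without it. More genes were at 1 FPKM or above with siDNMT1, 12434 to 12502 against 11703 to 11932. The epithelial marker EPCAM (243 FPKM with siCHD4, 227 with both siRNAs) and the intestinal factor CDX2 (62.1 and 66.4 FPKM) were present in both groups. Of the 7 colon epithelium markers tested, 2 were called higher and 1 lower, with log2 changes from -0.61 to 1.01.

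DNMT1 was at 50.0, 41.8 and 35.7 FPKM with siCHD4 and at 12.6, 11.0 and 12.8 FPKM with siCHD4 plus siDNMT1. The groups did not overlap, and the second mean was 28.5% of the first (log2 change -1.72 ± 0.11 SE, adjusted p = 1.40e-08, exact two-sided permutation p = 0.1, the smallest that 3 against 3 libraries allow). Where CHD4 was left intact, siDNMT1 lowered DNMT1 from 44.7 ± 0.892 to 12.3 ± 1.15 FPKM (SD, n = 3). CHD4 was at 39.0, 31.8 and 23.2 FPKM with siCHD4 and at 29.0, 27.1 and 29.1 FPKM with both siRNAs. These groups overlapped, and no change in CHD4 was detected (log2 change -0.11, 95% interval -0.40 to 0.18, adjusted p = 0.566, exact permutation p = 0.7). Both groups were below the 62.8 ± 4.78 FPKM (SD, n = 3) of control siRNA. Without siCHD4 replicate 2, whose CHD4 was lowest, the log2 change was -0.30 and passed the threshold (adjusted p = 0.029), as it did with library weights (-0.38, adjusted p = 8.3e-05).

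**Figure D1:**
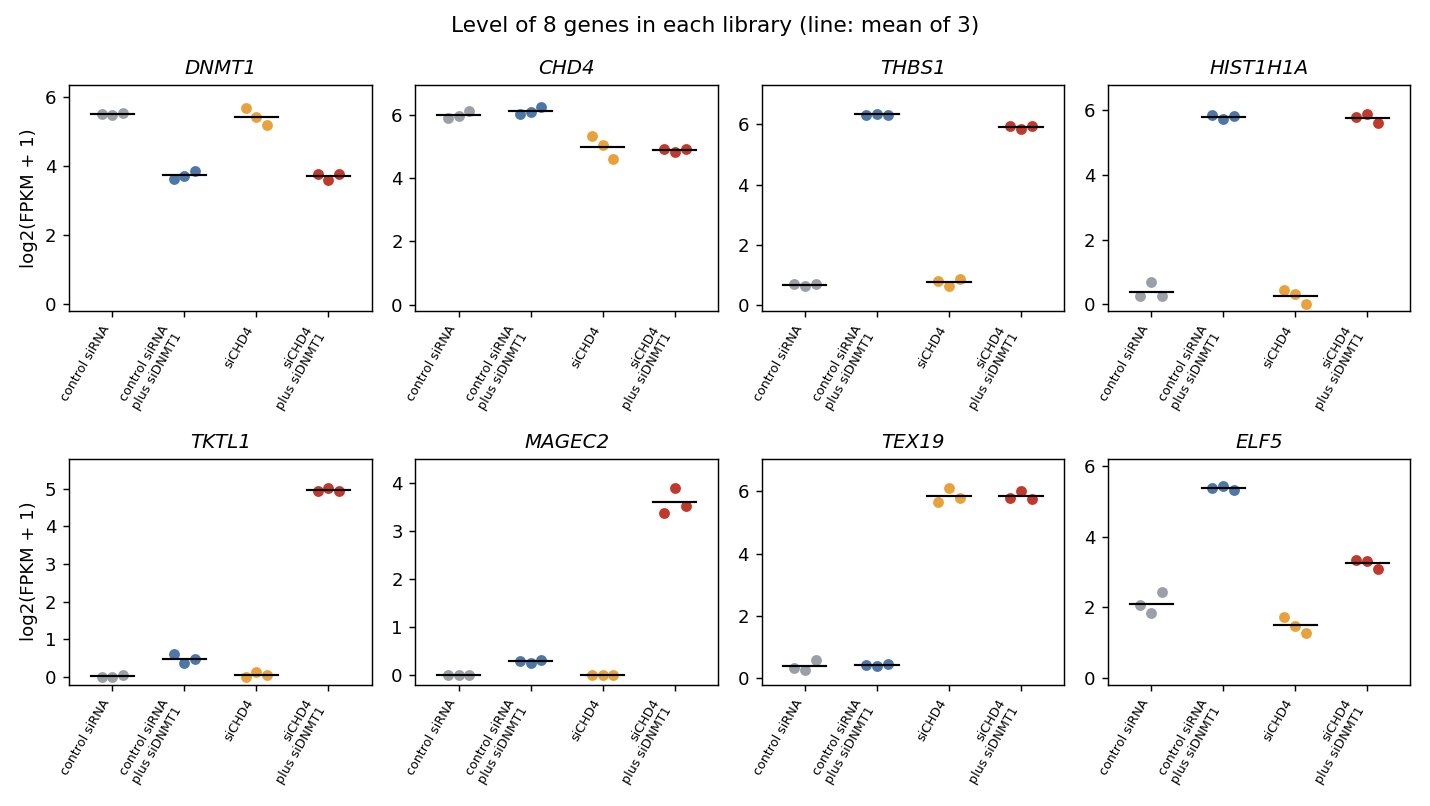
Level of 8 genes in each library, as log2(FPKM + 1), in the 4 groups given control siRNA or siCHD4 with or without siDNMT1 (points: libraries, line: mean of 3). DNMT1 falls in both siDNMT1 groups, THBS1 and HIST1H1A rise in both, TKTL1 and MAGEC2 are high in the libraries given both siRNAs, TEX19 is high in both siCHD4 groups, and ELF5 is highest with siDNMT1 and control siRNA.

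Of 12809 genes tested, 2129 were higher (16.6%) and 2483 lower (19.4%) with siDNMT1 added to siCHD4. These shares of all genes are the background for the list counts below. The libraries of the groups did not overlap for 42.8% of the genes. The larger changes were mostly increases: 582 genes were higher and 107 lower by at least 1 on the log2 scale, and 161 were higher and 12 lower by at least 2. The median change over all tested genes was -0.000662. Without siCHD4 replicate 2 the counts were 2892 higher and 3274 lower. In cells given control siRNA the same addition of siDNMT1 was followed by fewer calls, 889 higher (6.94%) and 563 lower (4.4%). That order rests on the spread estimated over all 18 libraries: fits on the compared groups alone called 1301 higher and 1097 lower in siCHD4 cells and 1287 higher and 1487 lower in control siRNA cells. Of the genes higher in siCHD4 cells, 693 were also higher in control siRNA cells, which is 32.6% of the former and 78% of the latter. The lower calls shared 349 genes, 14.1% and 62.0%. The change differed between siCHD4 and control siRNA cells, by the interaction term of the same fit, for 363 genes in the direction of a higher value (2.83%) and 165 in that of a lower value (1.29%). Without siCHD4 replicate 2 these counts were 1089 and 1468.

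Among 484 tested genes under 0.5 FPKM with siCHD4, 434 were higher with siDNMT1 added, and among 81 under 0.5 FPKM with both siRNAs, 18 were lower than with siCHD4. A gene this low in one group passed the filter through its level in another, so the tested genes are not a fair sample. When the filter was dropped, 7069 genes lay under 0.5 FPKM with siCHD4, of which 1891 passed as higher, and 6256 lay there with both siRNAs, of which 55 passed as lower.

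A first set of genes was low with siCHD4 alone and rose with siDNMT1 whether CHD4 was depleted or not. THBS1 (chr15:39873280-39891667), which encodes the matrix protein thrombospondin 1, was at 0.753, 0.544 and 0.806 FPKM with siCHD4 and at 60.8, 56.6 and 61.2 FPKM with both siRNAs. The groups were far apart (84.9-fold by their means, log2 change 5.16 ± 0.08 SE, adjusted p = 3.58e-16). In control siRNA cells THBS1 went from 0.597 ± 0.0527 to 79.7 ± 1.27 FPKM (SD, n = 3), and the rise was smaller with siCHD4 (difference -0.50 ± 0.11, adjusted p = 0.0136). The linker histone gene HIST1H1A was at 0.361, 0.253 and 0 FPKM with siCHD4 and at 54.1, 57.5 and 47.5 FPKM with both, and in control siRNA cells siDNMT1 took it from 0.327 to 55.0 FPKM on average. No difference between these rises was detected (0.08, 95% interval -0.52 to 0.68). HIST1H1B, another linker histone gene, rose from 0.247 ± 0.127 to 43.6 ± 1.85 FPKM, and HIST1H3C and HIST1H4I, genes of core histones H3 and H4, rose from 1.59 ± 0.904 to 86.2 ± 10.3 and from 1.93 ± 0.73 to 94.7 ± 6.97 FPKM (SD, n = 3). With siDNMT1 and control siRNA these 3 genes were at 37.8 ± 6.95, 45.0 ± 4.66 and 83.4 ± 11.4 FPKM (SD, n = 3), and no difference of the changes was called (adjusted p = 0.83, 0.70 and 0.749).

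CRIP1, which encodes a small LIM domain protein, was at 0.769, 0.538 and 2.04 FPKM with siCHD4 and at 54.4, 76.7 and 61.4 FPKM with both siRNAs (log2 change 5.00, adjusted p = 2.75e-09). PRAME, a cancer-testis gene outside the X chromosome, was at 0.747, 0.453 and 0.515 FPKM and then at 41.9, 45.9 and 43.8 FPKM (4.84, adjusted p = 2.35e-11). In control siRNA cells CRIP1 and PRAME rose by log2 changes of 4.19 and 4.24, to 39.5 and 22.4 FPKM on average. The difference was 0.80 for CRIP1 (95% interval -0.04 to 1.65, adjusted p = 0.282) and 0.59 for PRAME (95% interval 0.05 to 1.13, adjusted p = 0.214), neither called. ACRC, a germ cell gene on the X chromosome that was named after its value was seen, stood at 0.462 ± 0.218 FPKM with siCHD4 and 36.8 ± 3.77 with both (SD, n = 3). Its log2 change, 4.70, was close to the 4.60 of control siRNA cells, with an interval of -0.30 to 0.48 for the difference.

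The siDNMT1 change was called larger in siCHD4 than in control siRNA cells for most tested cancer-testis genes of the X chromosome. These were 14 of 14 MAGE genes and 18 of 20 others, against 2.83% of all genes. Of 24 listed MAGE genes, which encode germ cell proteins that bind ubiquitin ligases, 23 were in the table and 14 were tested. All 14 tested members were called higher with siDNMT1 added to siCHD4 and 0 were lower (limma, 0 at an unadjusted p below 0.05), against 16.6% higher of all genes, and 4 were higher in control siRNA cells. The difference of the siDNMT1 effects was called for the same 14. With no filter 16 of 19 members with any value were higher. Their summed level was 0.358 to 0.640 FPKM over the siCHD4 libraries and 83.0 to 97.2 FPKM over those with both siRNAs, so the ranges were far apart. The tested members passed the filter through the groups where they are high, so their count is a description. Their median log2 change of 2.04 rests on the pseudocount, since many were listed at 0 with siCHD4, and was 4.74 with a pseudocount of 0.1.

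MAGEC2 (chrX:141290128-141293076) was listed at 0 in the 3 siCHD4 libraries and stood at 9.46, 14.0 and 10.6 FPKM with both siRNAs (adjusted p = 2.35e-11). With siDNMT1 and control siRNA it was at 0.230, 0.190 and 0.244 FPKM, below each library with both siRNAs. MAGEA4 went from a listed 0 in each library to 10.6, 12.2 and 8.95 FPKM, against 0.384 ± 0.0842 FPKM (SD, n = 3) with siDNMT1 and control siRNA. MAGEB2 was listed at 0 in each siCHD4 library and was at 13.1, 14.0 and 14.7 FPKM with both. MAGEB6 rose from 0.262 ± 0.111 to 12.6 ± 0.971 FPKM, and MAGEA10 from 0.0192 ± 0.0167 to 3.07 ± 0.371 FPKM (SD, n = 3). In none of these 5 genes did a library of the siCHD4 group reach a library of the group with both siRNAs.

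The list of other X-linked cancer-testis genes, which holds the SSX, PAGE, GAGE, VCX and related families, had 56 members, 53 in the table and 20 tested. All 20 tested members were higher and 0 lower (limma, 0 lower at an unadjusted p below 0.05), 8 were higher in control siRNA cells, and the difference was called for 18. Of all genes 16.6% were higher and 2.83% had a higher difference. The tested members of this list also passed the filter through the groups where they are high, so their counts are a description. With no filter 27 of 37 were higher. TKTL1 (chrX:153524148-153558700), a transketolase-like gene, was at 0, 0.0915 and 0.0463 FPKM with siCHD4 and at 29.8, 31.4 and 29.7 FPKM with both siRNAs. With siDNMT1 and control siRNA it was at 0.520, 0.286 and 0.404 FPKM, so its level with both siRNAs was far above that of either alone (difference 4.44 ± 0.31 SE, adjusted p = 4.17e-07). VCX, a member of a family of near-identical germ cell genes, was listed at 0 in each siCHD4 library, was at 14.9, 15.6 and 13.7 FPKM with both siRNAs and at 0.286 ± 0.0137 FPKM (SD, n = 3) with siDNMT1 and control siRNA. Its paralog VCX3A was at 0.0599 ± 0.0519, 10.7 ± 1.04 and 0.0436 ± 0.0755 FPKM in the same order.

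PAGE2B, PAGE5 and SSX3 also had a larger siDNMT1 change in siCHD4 cells, but were already well above 0 with siDNMT1 and control siRNA. PAGE2B went from 0.0769 ± 0.133 to 27.0 ± 0.625 FPKM and was at 10.8 ± 1.2 FPKM with siDNMT1 and control siRNA. PAGE5 went from a listed 0 to 17.6 ± 1.13 FPKM, against 3.24 ± 0.697 FPKM, and SSX3 from a listed 0 to 14.8 ± 0.284 FPKM, against 4.98 ± 0.199 FPKM (SD, n = 3). Members of these families share reads with close copies, and how such reads were split is not given in the sources used here, so the level of a single copy is uncertain.

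**Figure D2:**
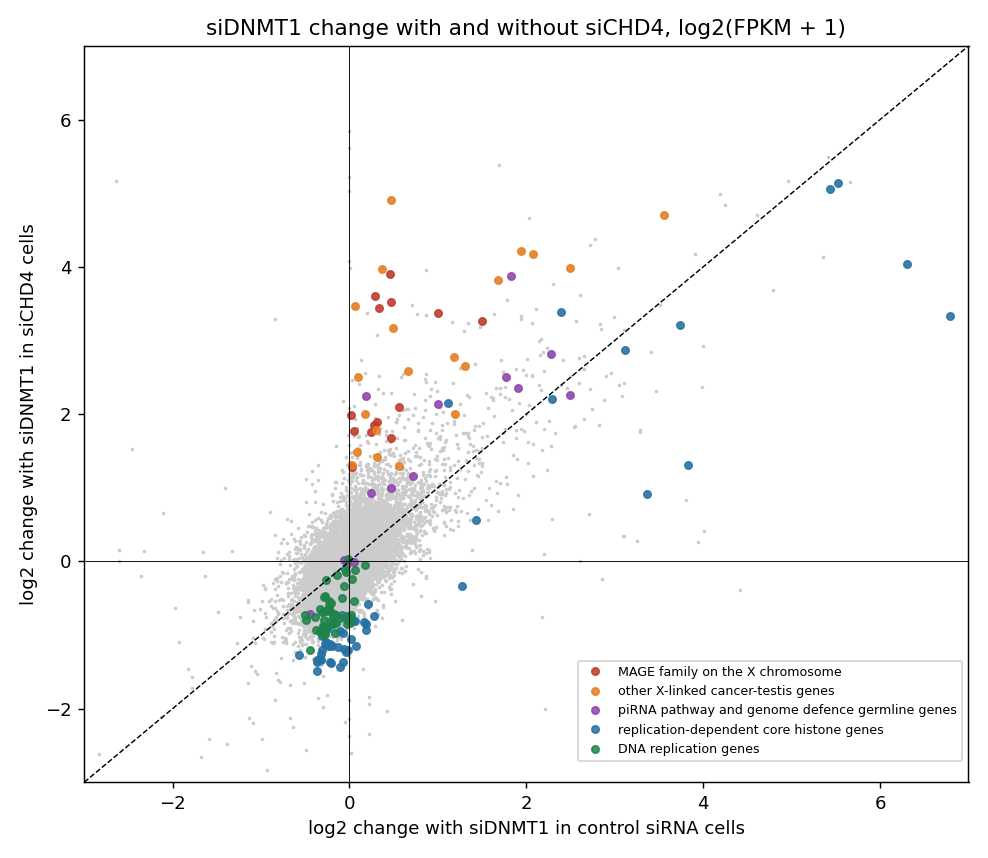
Each point is a gene: its log2 change with siDNMT1 in control siRNA cells (x axis) and in siCHD4 cells (y axis), on the log2(FPKM + 1) scale, with 5 gene lists coloured. The dashed line marks equal change, and 52 genes outside the axes are not drawn. MAGE and other X-linked cancer-testis genes lie above the line, with medians of 2.04 and 2.71 on the y axis.

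By position, 26.4% of the 382 located genes of chromosome X were called higher, against 16.8% of all 11383 located genes and 21.2% of chromosome 19, the next highest. Chromosome X held 3.36% of the located genes, 17.9% of those higher by at least 2 on the log2 scale and 14.8% of those with a higher difference. Outside the cancer-testis lists 19.5% of 349 X genes were higher.

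HCLS1 (chr3:121350246-121379774), a gene of haematopoietic cells that binds cortical actin, showed the same order of levels as MAGEC2 and was named after its value was seen. It was at 0, 0 and 0.120 FPKM with siCHD4 and at 14.7, 15.8 and 15.0 FPKM with both siRNAs. With siDNMT1 and control siRNA it reached 0.866 ± 0.0807 FPKM (SD, n = 3), and the difference of the changes was 3.09 ± 0.22 (adjusted p = 5.43e-07). TEX19, a germ cell gene also named after its values were seen, was high with siCHD4 alone. It was at 49.9, 68.4 and 54.6 FPKM with siCHD4 and at 54.6, 63.1 and 53.6 FPKM with both siRNAs, so the groups overlapped (95% interval of the log2 change -0.46 to 0.45). In control siRNA cells it stayed under 1 FPKM with or without siDNMT1.

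The piRNA pathway guides transposon silencing in germ cells by small RNAs. Of 23 members 14 were tested, 10 were higher and 1 lower with siDNMT1 added to siCHD4, and 8 were higher in control siRNA cells. The shares of all genes were 16.6%, 19.4% and 6.94%. Low members such as GTSF1 passed the filter through groups where they are high, so these counts are a description. With no filter 14 of 22 were higher, against 3492 of all 19824 genes. The median log2 change of the tested members, 1.65, rests on the pseudocount and was 3.21 with a pseudocount of 0.1. GTSF1, a cofactor of PIWI proteins, was listed at 0 in each siCHD4 library and was at 14.9, 15.7 and 11.0 FPKM with both siRNAs, against 2.79 ± 1.54 FPKM (SD, n = 3) with siDNMT1 and control siRNA. PIWIL2, a PIWI protein gene, rose from 0.129 ± 0.0282 to 4.78 ± 0.0132 FPKM, and TDRD1, a tudor domain scaffold, from 0.643 ± 0.261 to 6.82 ± 0.395 FPKM. Neither differed by the interaction term (adjusted p = 0.14 and 0.529), whereas the rise of the helicase gene TDRD9, from 0.00529 to 3.43 ± 0.323 FPKM, was larger in siCHD4 cells (difference 1.13, adjusted p = 3.65e-05). PLD6, which encodes a mitochondrial nuclease of piRNA maturation, was the lower member, at 8.58, 10.3 and 5.93 FPKM and then 4.30, 5.49 and 3.94 FPKM.

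Of 32 meiotic chromosome genes 30 were in the table and 11 were tested, 4 of them higher and 1 lower. The shares of all genes were 16.6% and 19.4%. Low members such as DAZL passed the filter through groups where they are high, so these counts are a description. With no filter 15 of 30 were higher, against 3492 of all 19824 genes. The cohesin gene STAG3 rose from 0.793 ± 0.263 to 5.38 ± 0.556 FPKM, the synaptonemal complex gene SYCP3 from 0.382 ± 0.306 to 3.52 ± 1.13 FPKM, and DAZL, an RNA-binding germ cell factor, went from a listed 0 to 1.25 ± 0.187 FPKM (SD, n = 3). MEIOB, a recombination gene, rose from 0.18 ± 0.118 to 1.01 ± 0.107 FPKM, less than in control siRNA cells (difference -0.83, adjusted p = 0.027), and was not called after quantile normalization. SYCE2 fell from 6.08 ± 1.33 to 2.49 ± 0.399 FPKM, a call lost without siCHD4 replicate 1.

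Genes often hypermethylated in colorectal cancer were higher for 8 of 12 tested members and lower for 0 (limma, 0 lower at an unadjusted p below 0.05). Of all genes 16.6% were higher and 19.4% lower. Low members such as ESR1 passed the filter through groups where they are high, so these counts are a description. The list has 45 genes, 44 in the table. With no filter 22 of 39 were higher, against 3492 of all 19824 genes. Beside THBS1, the oestrogen receptor gene ESR1 went from 0, 0 and 0.0359 to 1.08, 1.09 and 1.13 FPKM. It was at 0.00593 ± 0.0103 FPKM (SD, n = 3) with siDNMT1 and control siRNA, and the difference was called (1.05, adjusted p = 2.52e-05). The Wnt inhibitor DKK1 rose from 0.0151 to 1.38 ± 0.291 FPKM, and VIM, the intermediate filament of mesenchymal cells, from 0.0358, 0.113 and 0.285 to 7.02, 6.25 and 6.47 FPKM.

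Mesenchymal transition genes were higher for 14 of 17 tested members and lower for 1, TNC, against 16.6% and 19.4% of all genes. The list has 27 genes, and the median log2 change of the tested members was 1.12. Low members such as FN1 passed the filter through groups where they are high, so these counts are a description. With no filter 16 of 25 were higher, against 3492 of all 19824 genes. LGALS1, the galectin 1 gene, was at 44.6, 68.2 and 58.8 FPKM with siCHD4 and at 268, 287 and 254 FPKM with both siRNAs, with no overlap (log2 change 2.24 ± 0.24, adjusted p = 3.96e-06). The matrix gene FN1 rose from 0.175 ± 0.0356 to 2.30 ± 0.0873 FPKM (SD, n = 3), a larger change than in control siRNA cells (difference 1.14, adjusted p = 4.84e-05). S100A4, a calcium-binding protein gene, was at 367, 457 and 423 FPKM and then at 872, 839 and 868 FPKM. It rose less than in control siRNA cells, where it went from 622 ± 20 to 2147 ± 116 FPKM (SD, n = 3; difference -0.73, adjusted p = 0.00469).

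Of 30 epithelial junction and identity genes 5 were higher and 7 lower, near the 16.6% and 19.4% of all genes, with a median change of 0.02. CLDN7, a tight junction claudin, fell from 70.0 ± 18 to 32.4 ± 3.92 FPKM, and the epithelial ETS factor EHF from 36.9, 30.5 and 29.8 to 21.1, 20.5 and 19.8 FPKM. KRT18 was at 422 ± 60.5 and 274 ± 8.14 FPKM (SD, n = 3), a call lost with quantile normalization. ELF5, an ETS factor of secretory and placental epithelia, rose from 2.26, 1.78 and 1.40 to 9.18, 8.85 and 7.49 FPKM. With control siRNA it rose from 3.35 ± 0.899 to 40.7 ± 1.73 FPKM (SD, n = 3), so its change was smaller with siCHD4 (difference -1.52, 95% interval -2.04 to -1, adjusted p = 0.00127).

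**Figure D3:**
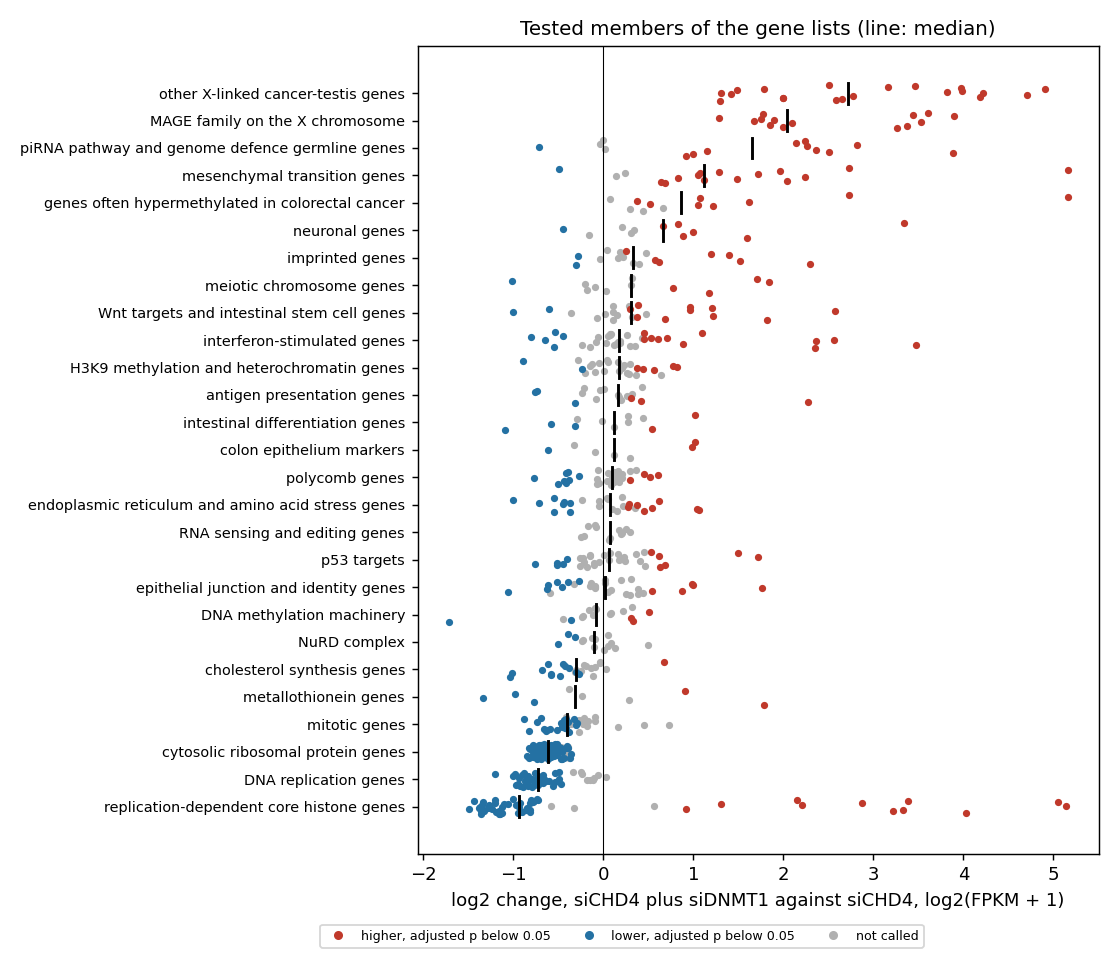
Log2 change of each tested member of the gene lists with at least 5 tested members, siCHD4 plus siDNMT1 against siCHD4, on the log2(FPKM + 1) scale (red: higher, blue: lower, grey: not called, black line: median). Cancer-testis lists lie to the right of 0, and replication, ribosomal protein and most core histone genes lie to the left.

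Of 49 interferon-stimulated genes 34 were tested, 11 higher and 5 lower, against 16.6% and 19.4% of all genes. Their median change was 0.17, and the lower members included OAS1, OAS3 and USP18. The members given with values next all rose. IFI27, a mitochondrial protein gene of the interferon response, rose from 0.628, 0.659 and 1.5 to 18.0, 23.5 and 18.9 FPKM, more than in control siRNA cells (difference 2.76, adjusted p = 0.00107). BST2, which tethers enveloped virus particles at the cell surface, was at 11.4, 17.4 and 21.2 FPKM with siCHD4 and at 78.1, 99.1 and 85.1 FPKM with both. The restriction factor gene IFITM1 rose from 3.93, 6.69 and 8.21 to 37.5, 39.1 and 29.9 FPKM, less than in control siRNA cells (difference -1.62, adjusted p = 0.00266). IFITM2 rose from 1.15 ± 0.825 to 11.2 ± 0.67 FPKM, and UBA7, the activating enzyme for ISG15, from 0.163 ± 0.165 to 1.47 ± 0.198 FPKM (SD, n = 3). Of 12 tested RNA sensing and editing genes, 0 were called higher and 0 lower by limma, with 1 in each direction at an unadjusted p below 0.05. With no filter 1 of 15 was higher.

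APOBEC3G, a cytidine deaminase, was at 0.0424, 0.0445 and 0.0675 FPKM with siCHD4 and at 0.669, 0.727 and 0.552 FPKM with both siRNAs. The libraries did not overlap, but the change was not called (log2 change 0.65, adjusted p = 0.104). It was called with a pseudocount of 0.1 (2.30, adjusted p = 0.00088), with library weights (0.63, adjusted p = 1.0e-04) and in a fit on the compared groups alone (adjusted p = 0.0058), and was -0.063 after quantile normalization. In control siRNA cells siDNMT1 took it from 0.336 ± 0.285 to 7.63 ± 0.641 FPKM (SD, n = 3), and the difference was called (-2.06, adjusted p = 0.0108).

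Of 22 antigen presentation genes 17 were tested, 3 higher and 3 lower, shares near the 16.6% and 19.4% of all genes. CD74, the invariant chain of class II molecules, rose from 0.109 ± 0.138 to 4.36 ± 0.388 FPKM, more than in control siRNA cells (difference 1.55, adjusted p = 4.54e-05). HLA-B rose from 254, 273 and 265 to 324, 329 and 325 FPKM, a log2 change of 0.30 that was not called in a fit on the compared groups alone (adjusted p = 0.086). The immunoproteasome subunits PSMB8 (82.2 ± 11 to 48.5 ± 2.91 FPKM) and PSMB10 (27.6 ± 5.64 to 15.8 ± 1.55 FPKM; SD, n = 3) fell. The other called members were ERAP1, higher, and B2M, lower.

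Genes of DNA replication fell together. Of 46, 37 were lower and 0 higher (limma, 0 higher at an unadjusted p below 0.05), against 19.4% lower of all genes, with a median log2 change of -0.72. With control siRNA 5 were lower, and the difference of the effects was called lower for 11. Their median level was 41.0, 38.6 and 30.6 FPKM in the siCHD4 libraries and 22.5, 23.4 and 22.9 FPKM with both siRNAs, so the groups did not overlap. RFC5, a clamp loader subunit, went from 53.4, 53.8 and 37 to 20.9, 21.3 and 18.1 FPKM. PRIM1, the catalytic subunit of primase, fell from 24.7 ± 1.64 to 13.4 ± 1.02 FPKM, whereas it was at 25.4 FPKM both with and without siDNMT1 in control siRNA cells (difference -0.84, adjusted p = 0.00108). RRM1, of ribonucleotide reductase, fell from 112 ± 13.3 to 60.4 ± 3.51 FPKM (SD, n = 3). The count was 37 after median-ratio scaling and after quantile normalization.

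Mitotic genes were lower for 21 of 34 and higher for 0 (limma, 0 higher at an unadjusted p below 0.05), with a median of -0.40. The median level of the list was 61.7, 59.5 and 57.9 FPKM with siCHD4 and 40.4, 43.7 and 42.2 FPKM with both. CCNA2, cyclin A2, fell from 65.5 ± 6.55 to 40.9 ± 1.25 FPKM and the kinase AURKB from 62.4 ± 11.9 to 34.4 ± 1.35 FPKM (SD, n = 3). Only 1 member was lower in control siRNA cells. The count was 10 with quantile normalization and 13 without siCHD4 replicate 0.

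Cytosolic ribosomal protein genes were lower for 69 of 75 tested members, with 0 higher (limma, 0 at an unadjusted p below 0.05) and a median of -0.61. RPL22 went from 184, 168 and 161 to 101, 117 and 105 FPKM, more than in control siRNA cells (difference -0.57, adjusted p = 0.00792). RPL24 was at 1849, 2012 and 1330 FPKM and then at 884, 1067 and 903 FPKM, RPS3A at 2540 ± 434 and 1465 ± 78.5 FPKM, and RPS4X at 2864 ± 470 and 1651 ± 137 FPKM (SD, n = 3). Quantile normalization, which gives each library the same distribution, left 3 members lower and a median of 0.01, and median-ratio scaling left 68. A fit on the 6 libraries alone, with the scaling and the changes as before, left 12. In control siRNA cells 0 were higher and 0 lower by limma.

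**Figure D4:**
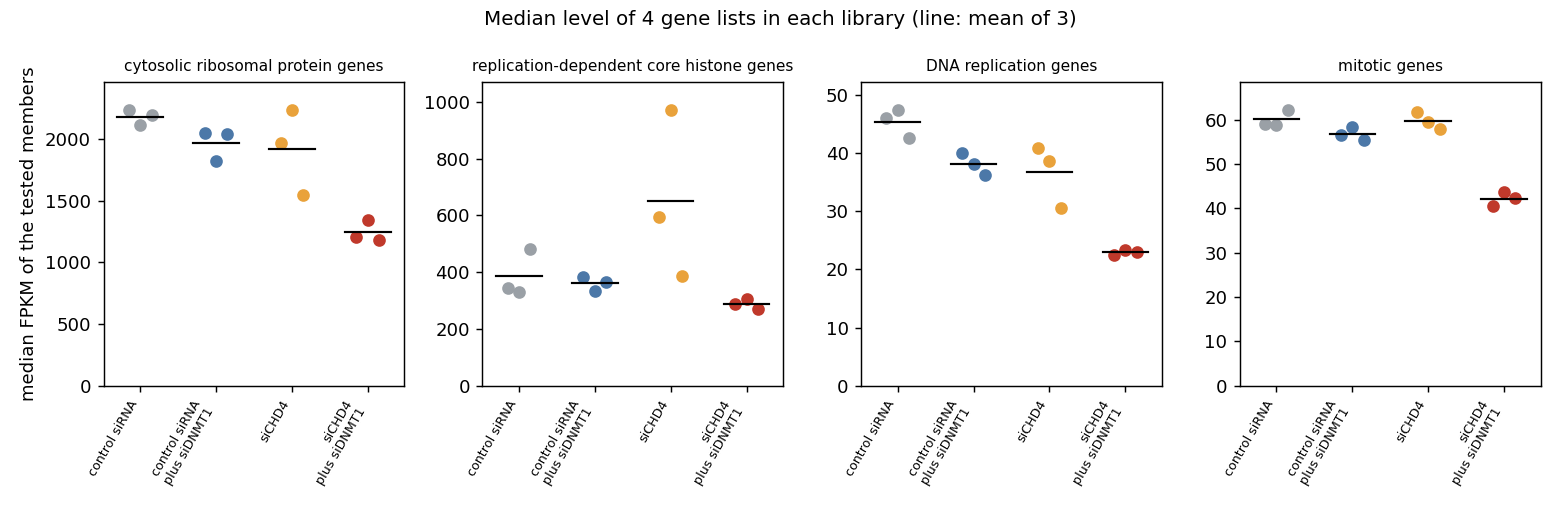
Median FPKM of the tested members of 4 gene lists in each library of 4 groups (points: libraries, line: mean of 3, axis from 0). All 4 lists are lowest with siCHD4 plus siDNMT1, and core histone and ribosomal protein genes vary most among the siCHD4 libraries, from 387 to 972 FPKM for the histones.

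Core histone genes of the replication-dependent clusters split into a larger set that fell and a smaller set that rose from low levels. Of 53 tested, 39 were lower and 11 higher, with a median of -0.94, and in control siRNA cells 12 were higher and 0 lower (limma). HIST1H2BH, a lower member, was at 1865, 2446 and 1036 FPKM with siCHD4 and at 559, 683 and 552 FPKM with both siRNAs. HIST1H4K fell from 340, 401 and 136 to 89.6, 103 and 99.2 FPKM, and HIST1H2BL and HIST1H2BO from 965 ± 380 and 1657 ± 694 to 349 ± 19.9 and 602 ± 47.2 FPKM (SD, n = 3). The siCHD4 libraries differed widely, replicate 1 being highest and replicate 2 lowest. The lower count was 29 with quantile normalization, 18 in a fit on the 6 libraries alone and 27 without siCHD4 replicate 1. Reads shared among these near-identical genes make each level uncertain.

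Of the 11 higher members, HIST1H2AE was at 4.27, 8.15 and 5.87 FPKM and then at 115, 120 and 103 FPKM, and HIST1H2BG at 15.2, 25.5 and 12.1 FPKM and then at 171, 201 and 162 FPKM. With control siRNA these genes started lower, at 0.108 ± 0.188 and 0.152 ± 0.263 FPKM (SD, n = 3), and reached 86.0 and 125 FPKM, so their log2 change was smaller with siCHD4 (differences -2.27 and -3.46, adjusted p = 0.00308 and 0.00116). HIST1H2BI and HIST1H3J, at 145 ± 45.2 and 39.8 ± 19.4 FPKM with siCHD4 and 267 ± 34 and 90.5 ± 6.61 FPKM with both, also had lower differences (-2.44 and -2.53), and the HIST1H3J rise was not called in a fit on the compared groups alone (adjusted p = 0.052). HIST1H1T, the testis linker histone gene, was at 113, 153 and 68.1 FPKM with siCHD4 and at 88.8, 95 and 85.4 FPKM with both siRNAs, within the siCHD4 range, and it rose from 3.39 to 30.3 FPKM in control siRNA cells (difference -3.09, adjusted p = 0.00171).

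Cholesterol synthesis genes were lower for 12 of 24 tested members, with 1, TM7SF2, higher and a median of -0.30, and 9 were lower in control siRNA cells. FDPS, farnesyl diphosphate synthase, went from 121, 135 and 104 to 52.2, 62.7 and 60.5 FPKM. ACAT2, at the entry of the pathway, fell from 37.9 ± 6.76 to 17.8 ± 1.03 FPKM, more than in control siRNA cells (difference -0.74, adjusted p = 0.00905). SQLE (27.0 ± 3.65 to 17.3 ± 1.25 FPKM) and DHCR7 (38.7 ± 6.07 to 25.3 ± 0.70 FPKM; SD, n = 3) fell by log2 changes of -0.61 and -0.58, close to the -0.57 and -0.49 of control siRNA cells.

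Stress genes of the endoplasmic reticulum and amino acid response were higher for 8 and lower for 8 of 26 tested members. The shares of all genes were 16.6% and 19.4%. The serine pathway gene SHMT2 fell from 113 ± 29.5 to 54.4 ± 1.13 FPKM and the asparagine synthetase gene ASNS from 27.2 ± 0.974 to 18.4 ± 1.21 FPKM. CHAC1, which degrades glutathione, rose from 1.31 ± 0.565 to 3.77 ± 0.426 FPKM and SESN2, a stress-induced regulator of growth signalling, from 4.49 ± 0.107 to 7.42 ± 0.762 FPKM (SD, n = 3). Targets of p53 were higher for 6 and lower for 5 of 34, shares near the 16.6% and 19.4% of all genes. TP53INP1, a p53-induced nuclear protein, rose from 3.22, 3.22 and 8.35 to 15.2, 13.6 and 14.8 FPKM. The cell cycle inhibitor CDKN1A rose from 54.7, 71.0 and 40.9 to 90.3, 85.7 and 86.4 FPKM, a call that was lost without siCHD4 replicate 0 or 2 and without siCHD4 plus siDNMT1 replicate 0 or 2.

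Wnt targets and intestinal stem cell genes were higher for 10 and lower for 2 of 22 tested members, with a median of 0.31. The feedback inhibitors NKD1 and APCDD1 rose, NKD1 from 2.50, 2.05 and 6.01 to 26.6, 20.8 and 25.4 FPKM and APCDD1 from 0.542 ± 0.0586 to 4.46 ± 0.47 FPKM (SD, n = 3). PROM1, a stem cell surface marker, fell from 28.5, 25.7 and 25.3 to 17.2, 16.7 and 17.5 FPKM, and the other lower member was MYC. Intestinal differentiation genes were higher for 2 of 11, the microvillus gene VIL1 (3.28 ± 2.07 to 7.04 ± 0.38 FPKM; adjusted p = 0.058 in a fit on the compared groups alone) and the cadherin gene CDH17 (1.76 ± 0.882 to 2.91 ± 0.394 FPKM). They were lower for 3, among them the carbonic anhydrase gene CA2 (7.71, 8.34 and 8.81 to 3.25, 3.91 and 2.96 FPKM) and the peptidase gene DPP4. Of all genes 16.6% were higher and 19.4% lower. The CDH17 libraries overlapped, and leaving out siCHD4 replicate 0 or 1 ended its call.

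Imprinted genes were higher for 7 and lower for 2, BLCAP and MEST, of 17 tested members, with a median of 0.33. The shares of all genes were 16.6% and 19.4%. Low members such as MKRN3 passed the filter through groups where they are high, so these counts are a description. With no filter 16 of 30 were higher, against 3492 of all 19824 genes. H19, a maternally expressed RNA, was at 4.92, 4.79 and 6.06 FPKM and then at 16.8, 16.7 and 17.0 FPKM. CDKN1C, a growth inhibitor of the same cluster, rose from 2.31, 3.10 and 7.74 to 21.3, 23.1 and 24.9 FPKM, with siCHD4 replicate 2 the highest of its group. MKRN3 rose from 0.239 ± 0.0652 to 2.26 ± 0.305 FPKM, more than in control siRNA cells (difference 0.74, adjusted p = 0.0265), and NNAT from 1.2 ± 0.517 to 4.01 ± 0.873 FPKM (SD, n = 3).

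Of the markers of other cell types, 6 of 21 were tested, and of these CD68 averaged above 1 FPKM with siCHD4 alone, as did LUM through replicate 2. Of 7 fibroblast markers 3 were tested and called higher: COL1A1, a collagen chain, from 0.0723, 0.0632 and 0.633 to 2.63, 1.54 and 2.76 FPKM, DCN from 0.176 ± 0.242 to 1.29 ± 0.187 FPKM, and LUM from 1.06 ± 1.38 to 10.0 ± 1.64 FPKM (SD, n = 3). The 7 summed to 0.414 to 3.80 FPKM with siCHD4 and 14.1 to 16.0 FPKM with both. Of 6 blood cell markers the 3 tested were higher, with sums of 1.61 to 2.88 and 6.31 to 7.69 FPKM. Of all genes 16.6% were higher. Low markers such as COL1A1, DCN and PTPRC passed the filter through groups where they are high, so both counts are a description. With no filter 5 of 6 fibroblast and 3 of 5 blood cell markers were higher, against 3492 of all 19824 genes. PTPRC, the leukocyte phosphatase CD45, went from 0.0291, 0.0763 and 0.0695 to 1.67, 2.30 and 1.83 FPKM, and CD68, a macrophage lysosomal protein, from 1.92 ± 0.598 to 3.30 ± 0.408 FPKM (SD, n = 3). The CD68 call was lost after quantile normalization and without siCHD4 replicate 0 or 2. COL3A1, a defining collagen of fibroblasts, and HBB, of red cells, were listed at 0 in each of the 6 libraries. None of the 4 endothelial or 4 neural and glial markers reached the filter, and the highest value among them was 0.678 FPKM. With no filter 1 endothelial and 2 neural and glial markers were called higher. The part of these marker changes in the other results was not tested.

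Neuronal genes were higher for 6 and lower for 1, STMN3, of 11 tested members of 28, against 16.6% and 19.4% of all genes. Low members such as UCHL1 passed the filter through groups where they are high, so these counts are a description. With no filter 11 of 26 were higher, against 3492 of all 19824 genes. UCHL1, a ubiquitin hydrolase abundant in neurons, was listed at 0 with siCHD4 and was at 8.64, 8.46 and 10.3 FPKM with both siRNAs, against 2.86 ± 0.554 FPKM (SD, n = 3) with siDNMT1 and control siRNA. BEX2, BEX4 and the neurofilament gene NEFH were listed at 0 in each siCHD4 library and averaged 2.05, 0.878 and 1.00 FPKM with both. The BEX4 call was lost after quantile normalization.

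Of 14 tested NuRD genes 0 were higher, also at an unadjusted p below 0.05 (limma), and 3 were lower. Of all genes 16.6% were higher and 19.4% lower. HDAC1, a deacetylase, fell from 105 ± 9.8 to 73.8 ± 2.34 FPKM, the histone chaperone RBBP7 from 122 ± 6.83 to 92.3 ± 5.49 FPKM, and MTA3 from 24.2 ± 1.47 to 19.3 ± 0.16 FPKM (SD, n = 3). The RBBP7 call was lost with quantile normalization and the MTA3 call in a fit on the compared groups alone (adjusted p = 0.054). Beside DNMT1, DNMT3B, a de novo methyltransferase, went from 6.79 ± 1.01 to 5.07 ± 0.449 FPKM (called lower), and DNMT3A, the other de novo enzyme, from 17.0, 18.2 and 26.5 to 25.3, 25.7 and 25.6 FPKM (called higher). Both calls were lost without siCHD4 replicate 0 or 1 and in a fit on the 6 libraries alone, and DNMT3A overlapped between the groups. The methyl-CpG binding gene MBD1 rose from 22.7 ± 1.23 to 28.4 ± 0.792 FPKM, and TET1, a 5-methylcytosine oxidase, from 0.495 ± 0.271 to 1.09 ± 0.0282 FPKM, with a change of -0.0099 after quantile normalization. Neither was called in a fit on the compared groups alone (adjusted p = 0.054 and 0.051).

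Polycomb genes were higher for 4 and lower for 8 of 30, against 16.6% higher and 19.4% lower of all genes. CBX2, which reads methylated histone H3 lysine 27, fell from 14.1 ± 2 to 9.58 ± 0.625 FPKM and PHF19, a cofactor of the methyltransferase complex, from 52.6 ± 3.92 to 39.1 ± 1.93 FPKM, while PCGF3, of polycomb repressive complex 1, rose from 14.7 ± 1.56 to 21.4 ± 0.786 FPKM. Genes of H3 lysine 9 methylation were higher for 5 and lower for 2 of 25, against the same shares of all genes. SUV39H1, a lysine 9 methyltransferase, fell from 8.25 ± 1.71 to 3.95 ± 0.634 FPKM, and the other lower member was the demethylase gene KDM1A. The lysine 9 demethylase gene KDM4B rose from 12.4 ± 3.19 to 22.2 ± 1.85 FPKM, the silencing factor MORC2 from 6.41 ± 0.283 to 11.7 ± 1.08 FPKM, and FAM208A, of the HUSH complex, from 11.1 ± 1.76 to 16.8 ± 0.856 FPKM (SD, n = 3). Metallothionein genes, which bind zinc and copper, were higher for 2 and lower for 3 of 8. MT2A fell from 125 ± 14.8 to 62.6 ± 4.59 FPKM, MT1G from 8.55 ± 2.12 to 3.07 ± 1.83 FPKM and MT1E from 87.4 ± 22 to 51.0 ± 13.6 FPKM, the last with overlapping libraries and a call lost without siCHD4 replicate 0 or siCHD4 plus siDNMT1 replicate 2. In a fit on the compared groups alone neither MT1G (adjusted p = 0.054) nor MT1E (adjusted p = 0.080) was called. MT1A went from a listed 0 to 2.64, 2.87 and 1.92 FPKM, and MT3 was the other higher member.

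Apart from small RNAs, the largest decreases among genes whose libraries did not overlap, named after their values were seen, included several core histone genes and the following. MRPL13, a mitochondrial ribosomal protein gene, was at 60.3, 51.1 and 41.4 FPKM and then at 15.2, 17.7 and 17.9 FPKM (log2 change -1.52, adjusted p = 5.87e-08), and fell more than in control siRNA cells (difference -0.69, adjusted p = 0.0208). BATF3, a transcription factor of the AP-1 family, fell from 11.2, 17.8 and 7.39 to 3.33, 4.46 and 3.25 FPKM. DDC, the aromatic amino acid decarboxylase, fell from 3.63, 3.74 and 4.50 to 1.35, 1.27 and 0.771 FPKM, and PA2G4, a growth-related RNA-binding factor, from 128 ± 41.1 to 53.2 ± 3.41 FPKM (SD, n = 3). In control siRNA cells siDNMT1 also lowered BATF3 and DDC (log2 changes -1.12 and -0.60, limma adjusted p = 0.0093 and 0.0148). PA2G4 was not called there (-0.56, adjusted p = 0.0788). No difference of the changes was called for BATF3, DDC or PA2G4 (adjusted p = 0.687, 0.110 and 0.219).

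Entries of small RNAs, which a long-fragment library measures poorly, made up 214 of the tested entries. Of these 9 were higher (4.2%) and 21 lower (9.8%), below the 16.6% and 19.4% of all genes. SNAR-F, SNAR-I and MIR941-2 were listed at 0 with siCHD4. SNAR-F was at 292, 181 and 643 FPKM with both siRNAs, SNAR-I at 184, 100 and 209 FPKM and MIR941-2 at 56.9, 61.9 and 51.6 FPKM. The lowest ranks held SNORD12, SNORD88A, SCARNA4, MIR219-1, SNORA41 and MIR1307, each listed at 0 in the 3 libraries with both siRNAs. They also held SNORD83B (1660, 1161 and 1322 FPKM, then 0, 0 and 360 FPKM), SNORA33 (259 ± 67.2, then 44.4 ± 16.1 FPKM), SNORA74A (1742 ± 965, then 284 ± 57.2 FPKM; SD, n = 3) and SNORD32A (34948, 42322 and 8561 FPKM, then 3867, 8385 and 7016 FPKM). The readthrough entry TNFAIP8L2-SCNM1 was at 3.32, 5.23 and 1.03 FPKM and then at 0.911, 0.00133 and 0.00173 FPKM. The calls of SNORD12, MIR219-1, MIR1307, SNORA74A, SNORD32A and TNFAIP8L2-SCNM1 were lost when single libraries were left out.

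Cells given siCHD4 with 50 nM decitabine, a DNA methyltransferase inhibitor, had RNA taken on day 5 and share the siCHD4 libraries as their baseline, so their values are only set beside those with siDNMT1. CHD4 was at 55.6, 56.5 and 52.6 FPKM there, against 27.1 to 29.1 FPKM with siDNMT1. TKTL1 was at 16.4, 16.1 and 15.0 FPKM, against 29.7 to 31.4 FPKM, and MAGEC2 at 2.52, 3.12 and 2.38 FPKM, against 9.46 to 14.0 FPKM. SSX3 averaged 15.4 FPKM, against 14.6 to 15.2 FPKM. THBS1 was at 38.3, 38 and 33.8 FPKM, below the 56.6 to 61.2 FPKM with siDNMT1, and H19 at 70.5, 65.6 and 64.6 FPKM, above the 16.7 to 17.0 FPKM. TEX19 was at 16.2, 15.5 and 16.4 FPKM, against 53.6 to 63.1 FPKM.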

How the data were processed

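RNA sequencing libraries were stranded and depleted of ribosomal RNA, from 1 µg of total RNA, per the labels' protocols. Extraction was by Trizol or an RNeasy kit, with no record here of which library had which. The deposited table holds FPKM computed by the authors, one column for each library. TopHat2 2.0.9, the hg19 build and Cuffdiff 2.1.1 were used, per the submitters' processing notes. Annotation, scaling between libraries and handling of shared reads: not given in the sources used here. Fragment counts were not used here, so no counting interval is given. The worth of 1 fragment, read from the steps between low values, was -0.64 and -0.58 on the log2 scale, relative to a control library, for siCHD4 replicates 0 and 1 and -0.26 to 0.02 for the other 4 libraries, which were therefore shallower.

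Of 23599 entries, 28 (0.119%) named by a date were left out. The 12809 genes that reached 1 FPKM in 3 or more of 18 libraries were fitted on log2(FPKM + 1), which understates changes of low genes, with 1 mean per group in limma 3.58.1 (R 4.3.3, empirical Bayes with a trend, 12 residual degrees of freedom). All tests are two-sided, with Benjamini-Hochberg adjustment over all tested genes. The script was tested on simulated data. No exact 0 was read as absence, and no fold is given against a group listed at 0. The gene lists and the genes named were chosen with earlier results of these data known. The named genes are CHD4, DNMT1, the 12 largest called changes in each direction with separate libraries, the 6 largest called differences in each direction, up to 4 members of each described list with the smallest p, and those said to be named later. Some genes that the rule names are not reported here. Replicate numbers did not pair libraries: residuals of same-numbered siCHD4 and siCHD4 plus siDNMT1 libraries correlated at 0.013, 0.095 and -0.033. Promoters are RefSeq sequences and gene positions are from GENCODE on GRCh37. Alternatives covered the pseudocount, filters, scaling, library weights, the replicate block, a fit on the compared groups alone and single libraries left out. A fit without small RNA entries was added after seeing the data.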

Additional observations from a re-analysis of the deposited data

Results flagged for a closer look

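The siDNMT1 change differed between siCHD4 and control siRNA cells, by the interaction term in limma, for 363 genes with a higher and 165 with a lower value in siCHD4 cells. The fewer and later doses of siCHD4 cannot be told apart from this difference. Each value below is that difference on the log2(FPKM + 1) scale, with an adjusted p below 0.05. It was positive, with some signal in the siCHD4 libraries, for TKTL1 (4.44), VCX3A (3.40), MAGEB6 (3.11), HCLS1 (3.09), IFI27 (2.76), MAGEA10 (1.97), CD74 (1.55), COL1A1 (1.33), PAGE2B (1.15), FN1 (1.14), TDRD9 (1.13), ESR1 (1.05), PTPRC (0.97), DCN (0.80), MKRN3 (0.74), DKK1 (0.69) and UBA7 (0.60). For those near 0 with siCHD4, such as TDRD9, MAGEA10 and HCLS1, the size of the difference depends on the pseudocount. The difference was also positive, with the same limit, for genes listed at 0 in each siCHD4 library: SNAR-I (7.30), VCX (3.61), MAGEB2 (3.44), MAGEC2 (3.32), MAGEA4 (3.06), PAGE5 (2.27), GTSF1 (2.06), SSX3 (1.49), UCHL1 (1.40), BEX2 (1.30) and BEX4 (0.83). It was negative for HIST1H2BG (-3.46), HIST1H1T (-3.09), HIST1H3J (-2.53), HIST1H2BI (-2.44), HIST1H2AE (-2.27), APOBEC3G (-2.06), IFITM1 (-1.62), ELF5 (-1.52), PRIM1 (-0.84), MEIOB (-0.83), RFC5 (-0.75), ACAT2 (-0.74), S100A4 (-0.73), MRPL13 (-0.69), RRM1 (-0.59), RPL22 (-0.57) and THBS1 (-0.50). Groups of 3 libraries were not screened for single outlying libraries.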

How the results depend on the processing

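The siCHD4 plus siDNMT1 comparison called 2129 genes higher and 2483 lower. Without the filter 3492 were higher. With a filter at 5 FPKM 1280 were higher, and fewer genes were tested. Library weights gave 4577 higher and 4512 lower, and a fit on the compared groups alone 1301 and 1097. Leaving out single libraries gave 1456 to 2892 higher and 1612 (without siCHD4 replicate 1) to 3274 (without siCHD4 replicate 2) lower. The replicate number as a block gave 2001 and 2354, although the numbers did not pair the libraries, and 1 of 3 siCHD4 libraries correlated best with its own number. Under the block the calls of DNMT3A and DNMT3B were lost, and 91 differences were lower.

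The difference of effects (363 higher, 165 lower) was least stable. It gave 205 higher with a pseudocount of 0.1, 861 without a filter, 120 higher and 99 lower at 5 FPKM, 312 lower with quantile normalization, and 2944 and 3200 with library weights. Single libraries left out gave 262 to 1089 higher and 56 to 1468 lower, both highest without siCHD4 replicate 2. In control siRNA cells (889 higher, 563 lower) a filter at 5 FPKM gave 512 higher, library weights 2077 and 2280, the groups alone 1287 and 1487, and single libraries left out 266 to 364 lower. The cause of these shifts was not tested, apart from the smaller number of genes or libraries where the setting itself removes them.

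The CHD4 change was 0.0054 with quantile normalization and -0.38 with library weights, which passed the threshold. It lay between -0.30 (without siCHD4 replicate 2, past the threshold) and 0.058 (without siCHD4 replicate 0) when single libraries were left out. Uncalled genes changed sign: TEX19 (-0.0996 to 0.12 without single libraries) to 0.022 with median-ratio scaling, 0.21 with quantile normalization, 0.099 with library weights and 0.12, 0.026 and 0.039 without siCHD4 replicate 1 and siCHD4 plus siDNMT1 replicates 0 and 2, HIST1H1T (-0.55 to 0.033 without single libraries) to 0.046 with quantile normalization and 0.033 without siCHD4 replicate 1, and APOBEC3G to -0.063 with quantile normalization. The called gene TET1 moved to -0.0099 with quantile normalization. Of 131 named genes that were called, 103 were called under each of the 15 alternatives that tested them. A gene that an alternative left out, by its filter or as a small RNA entry, was not counted as lost there. FPKM without counts limits low genes most: below about 1 FPKM the size of a change follows the pseudocount.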
